A study of Mus musculus with 9 samples.

Results

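The 9 genes described here encode junction proteins of the blood-testis barrier, and they were chosen by name among the 32285 genes of the deposited matrices. They are Cldn11, Cldn3 and Cldn5, which encode claudins, Ocln (occludin), Tjp1 (the scaffold protein ZO-1), F11r and Jam3 (the junctional adhesion molecules JAM-A and JAM-C), Gja1 (the gap junction protein connexin 43) and Cdh2 (N-cadherin). Their transcripts were counted by single cell RNA-seq of whole testis in 9 C57BL/6 mice at PND24 (post-natal day 24), with 1 library per mouse, and the methods describe a backcross to C57BL/6 J. There were 4 control mice, 2 of genotype NELF-B cKO and 3 of genotype TDP-43 cKO. In a cKO mouse, Stra8-iCre, a recombinase that is active in spermatogonia (SG) and not in somatic cells, deleted exons 1 to 4 of Nelfb, the gene of the Pol II pausing factor subunit NELF-B, or exon 3 of Tardbp, the gene of TDP-43. The floxed allele was paired with a null allele in every cell, so Sertoli and endothelial cells of the cKO mice kept a single working copy. Some controls were littermates of the cKO mice and some were not, and the labels do not say which.

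The blood-testis barrier is made by neighbouring Sertoli cells, the somatic cells that surround and nourish the germ cells. Tight junctions seal the space between Sertoli cells, and they lie beside adherens junctions, gap junctions and desmosomes in the same zone of contact. Claudins and occludin span the membrane and form the seal, ZO-1 couples them to actin, junctional adhesion molecules join cells through their outer domains, connexins form channels between cells and cadherins hold cells together. SG lie outside the barrier, and spermatocytes (SC) pass through it as they enter meiosis. The vessels of the testis have tight junctions of their own, of which claudin 5 is a standard component.

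The promoters of the 3 claudin genes are shown because, of the 9 genes, these differed most between Sertoli and endothelial cells. In the GRCm38 build of the mouse genome with the GENCODE M21 annotation, Cldn11 lies at chr3:31149920-31164324 on the plus strand, Cldn3 at chr5:134986214-134987472 on the plus strand and Cldn5 at chr16:18776847-18778262 on the plus strand. The sequences below are the RefSeq promoters of GRCm38.p6, 300 bases from 250 bases before the start of the gene to 50 bases after it, and capitals mark the GC box letters GGGCGG or CCGCCC and the CCAAT box letters CCAAT or ATTGG on either strand.
Cldn11, chr3:31149670-31149969, plus strand: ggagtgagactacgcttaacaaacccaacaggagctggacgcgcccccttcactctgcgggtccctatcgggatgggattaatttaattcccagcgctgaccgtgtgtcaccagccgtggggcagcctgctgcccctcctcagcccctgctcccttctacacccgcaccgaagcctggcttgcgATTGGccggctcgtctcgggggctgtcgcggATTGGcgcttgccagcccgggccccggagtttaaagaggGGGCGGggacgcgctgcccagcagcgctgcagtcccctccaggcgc
Cldn3, chr5:134985964-134986263, plus strand: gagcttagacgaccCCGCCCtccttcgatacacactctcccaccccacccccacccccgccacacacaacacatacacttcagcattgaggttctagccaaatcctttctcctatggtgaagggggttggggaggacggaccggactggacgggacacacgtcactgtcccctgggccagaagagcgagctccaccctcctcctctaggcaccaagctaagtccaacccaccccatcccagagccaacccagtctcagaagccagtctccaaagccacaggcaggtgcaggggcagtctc
Cldn5, chr16:18776597-18776896, plus strand: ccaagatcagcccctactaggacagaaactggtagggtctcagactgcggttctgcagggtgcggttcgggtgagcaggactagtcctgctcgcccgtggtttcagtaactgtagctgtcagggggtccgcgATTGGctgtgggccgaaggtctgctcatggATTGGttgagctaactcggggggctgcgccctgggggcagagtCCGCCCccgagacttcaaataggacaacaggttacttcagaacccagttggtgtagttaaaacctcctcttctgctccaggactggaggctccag
There were 8 such promoters for 7 of the 9 genes, 2 of them for Ocln, and none for Jam3 or Cdh2. That of Tjp1, at chr7:65371195-65371494, surrounds a RefSeq start that lies inside the GENCODE gene. GC box letters were found in 7 of the 8, with 35.7% of 32851 mouse promoters of the same length holding them, and Gja1 was the gene without them. CCAAT box letters were found in 4 of the 8 (37.4% of all promoters), with 2 matches each in Cldn11 and Cldn5, and none in Cldn3. The TATA box letters TATAAA, the SOX motif letters AACAAT and the ETS motif letters CCGGAAGT, or their reverse complements, were found in none of the 8, and in 13.6%, 10.7% and 3.89% of all promoters. These matches describe letters in a window and do not show that a factor binds there.

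The other 6 genes lie at chr13:100496507-100552718 on the minus strand (Ocln), chr7:65296165-65527781 on the minus strand (Tjp1), chr10:56377330-56402513 on the plus strand (Gja1), chr18:16588877-16809246 on the minus strand (Cdh2), chr1:171437535-171464603 on the plus strand (F11r) and chr9:27097384-27155421 on the minus strand (Jam3). Cldn3 overlaps Wbscr25 on the other strand, which held 24 UMIs in the control Sertoli cells where Cldn3 held 523. Small annotated genes also overlap Tjp1, Cdh2 and Jam3.

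The libraries held 119203347 to 159407373 UMIs per mouse, where a UMI is a tag that counts 1 transcript molecule from its 3′ end. Of the barcodes, 45132 passed a filter of more than 1000 genes and under 10% mitochondrial UMIs, and 260 barcode sequences that passed were found in more than 1 library. A cell type was given to 30.5% to 65.6% of these barcodes in the controls, to 67.2% and 97.9% in NELF-B cKO and to 96.7% to 100.0% in TDP-43 cKO. The cell types used here were Sertoli cells (1195 in the controls, 623 in NELF-B cKO and 1292 in TDP-43 cKO), endothelial cells (55, 27 and 70), SG (1374, 1019 and 1148) and early SC, that is preleptotene, leptotene and zygotene SC (2890, 1432 and 1479). Late SC (pachytene and diplotene) and round spermatids (RS) numbered 1808 and 2631 in the controls and 11 and 100 in TDP-43 cKO, so germ cells were compared between genotypes over SG and early SC. The Sertoli cells carried Sertoli markers (8 genes, 6637 to 9802 CPM in the controls, against 95.6 to 191 in SG), and the endothelial cells carried endothelial markers (8 genes, 3919 to 4550 CPM, against 14.3 to 15.8 in Sertoli cells). CPM is the number of UMIs of a gene in every 1000000 UMIs summed over the cells of that type in 1 mouse, and the mouse is the unit of replication throughout. In Sertoli cells Nelfb was at 20.2 to 29.7 CPM in the controls and at 5.95 and 10.6 in NELF-B cKO, and Tardbp was at 99.4 to 116 CPM in the controls and at 73.7 to 81.1 in TDP-43 cKO. In germ cells both are 0 in their own cKO because germ cells in which that gene had a UMI were removed.

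In the control mice 4 of the 9 junction genes, Cldn11, Cldn3, Ocln and Cdh2, had their highest level in Sertoli cells with no overlap with any other cell type, by a narrow margin for Ocln (35.19 CPM in the lowest Sertoli mouse and 35.18 CPM in the highest endothelial one). Cldn5 was found almost wholly in endothelial cells, Tjp1 and Gja1 were high in both Sertoli and endothelial cells, F11r was highest in endothelial cells, and Jam3 was highest in SG. These orders run over 11 cell types, and the plot of levels by cell type shows all of them but innate lymphoid cells.

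**Figure D1:**
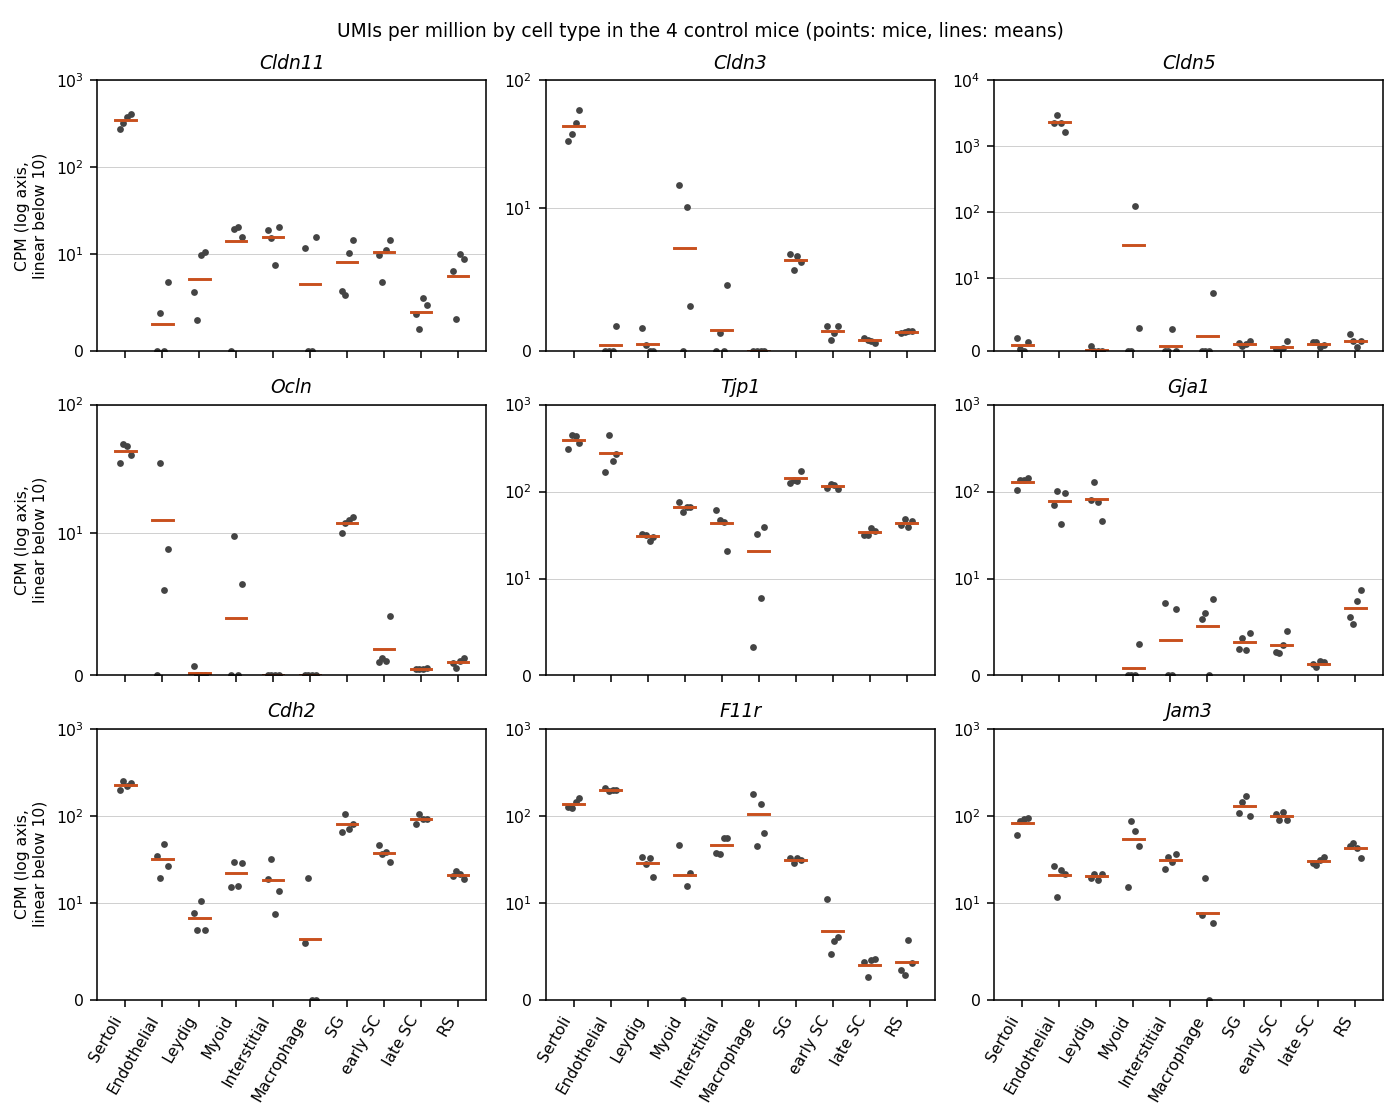
Level of each of the 9 junction genes in 10 cell types of the 4 control mice, in CPM on an axis that is linear below 10 and logarithmic above; each point is a mouse and each line is the mean. Cldn11, Cldn3 and Cdh2 stand apart in Sertoli cells and Cldn5 in endothelial cells, the highest endothelial mouse reaches the lowest Sertoli level for Ocln, while Jam3 is higher in SG than in Sertoli cells in every mouse.

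Cldn11, the claudin on which Sertoli tight junctions depend, was at 278, 319, 379 and 410.3 CPM in the Sertoli cells of the 4 control mice (mean 347 ± 59.4, SD, n = 4). The next cell type was interstitial at a mean of 16.0 CPM, and the other 10 cell types, down to endothelial cells at 2.75 CPM, each overlapped the next one in the order. SG were at 2.49% of the Sertoli level of the same mouse and early SC at 3.25% (medians of 4 mice), while the summed Sertoli markers were at 1.97% and 2.52% in these germ cells and Cldn11 was at 13.4% in the free RNA of near-empty barcodes. With each cell thinned to 2000 UMIs, a UMI of Cldn11 was found in 31.0% to 45.9% of Sertoli cells (34.2% to 62.2% without thinning), against 0.781% to 3.45% of SG (10.98% to 25.7%) and 1.47% to 5.26% of innate lymphoid cells, which lack a tight junction. The SG range reached below and overlapped that of the innate lymphoid cells. Thinning kept 779 of the 1195 Sertoli cells and 1372 of the 1374 SG.

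Cldn3, a claudin that appears at newly formed Sertoli junctions, was at 33.4, 37.8, 46.5 and 58.7 CPM in control Sertoli cells (mean 44.1 ± 11.1, SD, n = 4). SG were at 5.65 to 6.80 CPM, above early SC (0.773 to 1.75 CPM) and late SC (0.589 to 0.933 CPM) with no overlap. In SG this was 14.7% of the Sertoli level (10.7% to 20.4%), a larger share than that of the Sertoli markers in each mouse. Cldn3 in free RNA was at 17.4% of the Sertoli level (15.6% to 20.3%). After thinning, a UMI of Cldn3 was found in 4.76% to 12.7% of Sertoli cells and 0.314% to 1.56% of SG. The SG range overlapped that of innate lymphoid cells (0% to 1.47%). Macrophages held 0 UMIs of Cldn3, which allows a level of up to 4.01 CPM (3 counts over the 4 mice, counting error only).

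Ocln, which encodes the first tight junction membrane protein to be described, was at 35.2, 49.7, 47.5 and 40.2 CPM in control Sertoli cells, and at 9.99 to 13.3 CPM in SG. Early SC lay at 0.957 to 4.17 CPM, below SG with no overlap. Endothelial cells ranged from 0 to 35.2 CPM on 15 UMIs in all, which spanned the range of SG and reached the lowest Sertoli level.

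Cldn5 was at 2258, 2959, 2278 and 1657 CPM in the endothelial cells of the control mice (mean 2288 ± 532, SD, n = 4), and 90.0% to 100.0% of these cells held a UMI after thinning. Sertoli cells held 8 UMIs of Cldn5 in all 4 mice, a mean of 0.811 CPM, and the germ cells were at means of 0.574 to 1.41 CPM. Myoid cells had a mean of 31.8 CPM that came almost wholly from a single mouse at 123.9 CPM. The endothelial sums rest on 10 to 25 cells per control mouse.

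Tjp1 was at 309, 449, 436 and 361 CPM in control Sertoli cells and at 167, 446, 228 and 272 CPM in endothelial cells, and the ranges overlapped. It was found in every cell type: SG were at 125.6 to 173 CPM, early SC at 106 to 123 CPM and the lowest type, macrophages, at a mean of 20.7 CPM. SG and early SC did not overlap.

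F11r was at 195.5 to 211 CPM in endothelial cells and at 122 to 163 CPM in Sertoli cells. Innate lymphoid cells at 61.4 to 342 CPM overlapped both, and macrophages at 45.2 to 181 CPM overlapped Sertoli cells, JAM-A being also a protein of leukocytes. SG were at 31.5 CPM and early SC at 7.14 CPM (means), with no overlap between them.

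Jam3 was the one junction gene with its highest mean in germ cells. It was at 107.6, 143, 170.0 and 101.1 CPM in the SG of the 4 controls, at 89.7 to 112 CPM in early SC and at 59.8, 86.6, 93.4 and 95.8 CPM in Sertoli cells. SG lay above Sertoli cells in every mouse and without overlap, at 105.5% to 182% of the Sertoli level of the same mouse. Late SC at 30.1 CPM and RS at 42.5 CPM (means) were lower. After thinning, a UMI of Jam3 was found in 13.8% to 28.7% of SG, 15.2% to 18.1% of early SC and 13.1% to 19.2% of Sertoli cells.

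Gja1 was at 104, 137, 135 and 143 CPM in control Sertoli cells. Leydig cells at 45.7 to 128 CPM overlapped with these, and endothelial cells at 42.0 to 101.6 CPM overlapped with Leydig cells and lay just below the lowest Sertoli level of 103.8 CPM. All other cell types were at means of at most 6.97 CPM, with SG at 3.40 CPM or 2.73% of the Sertoli level.

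Cdh2 was at 197, 253, 221 and 237 CPM in control Sertoli cells. Late SC followed at 81.2 to 105 CPM and SG at 66.1 to 105 CPM, which overlapped, and early SC between these stages were lower at 30.0 to 46.7 CPM. Late SC were at 41.3% of the Sertoli level of Cdh2, where the Sertoli markers were at 0.976%.

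Levels were then tested between pairs of cell types in the control mice with edgeR's quasi-likelihood test over 17125 genes, with the mouse as a block. All 11 cell types were in 1 fit, so the spread behind each test is shared over all of them. Calls between cell types needed a Benjamini-Hochberg adjusted p under 0.05 as well as a change of 1 log2 unit or more. Because the clustering left out every junction gene, these genes did not choose the cells. Pecam1, from a further list of junction genes described below, was among the markers used to name endothelial cells.

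Between Sertoli and endothelial cells 6 of the 9 junction genes were called, against 34.3% of all genes. Cldn11 was 6.21 ± 0.40 log2 units higher in Sertoli cells (SE; edgeR adjusted p = 1.816e-17), Cdh2 2.74 ± 0.26 (3.968e-12), Jam3 1.87 ± 0.29 (5.398e-07) and Ocln 1.55 ± 0.52 (0.0137). The Ocln call was lost without control replicate 4 (1.26, edgeR adjusted p = 0.09555). Cldn3 was higher too, but on 1 endothelial UMI: the ratio of pooled CPM was 50.9 (95% exact interval 9.09 to 2013, counting error only; edgeR adjusted p = 5.032e-08). Cldn5 was lower in Sertoli cells by a log2 fold change of -11.76 ± 0.47 (1.153e-23), the largest difference of the 9. F11r was lower too, at a log2 fold change of -0.70 ± 0.29 (0.04909), which is under the limit of size. Tjp1 (0.25 ± 0.19, 0.3046) and Gja1 (0.48 ± 0.28, 0.1735) did not pass the test.

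Between Sertoli cells and SG 7 of the 9 were called, all higher in Sertoli cells, against 45.8% of all genes in either direction and 18.9% higher. The differences were 5.08 ± 0.20 log2 units for Cldn11 (edgeR adjusted p = 2.268e-25), 5.04 ± 0.26 for Gja1 (9.49e-21), 2.59 ± 0.28 for Cldn3 (9.486e-11), 1.93 ± 0.25 for F11r (6.406e-09), 1.65 ± 0.33 for Ocln (3.348e-05), 1.29 ± 0.15 for Cdh2 (3.828e-10) and 1.24 ± 0.17 for Tjp1 (1.643e-08). Jam3 was lower in Sertoli cells, with a log2 fold change of -0.82 ± 0.14 (2.429e-06) that is under the limit of size, and that was -0.35 (0.02688) with the deep Sertoli cluster described below in place of all Sertoli cells. Cldn5, near 1 CPM in both, did not pass (-0.65 ± 0.93, 0.5503).

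The same 7 genes were called higher in Sertoli cells than in early SC (39.3% of all genes called, 20.2% higher), from 1.62 log2 units for Tjp1 to 5.22 for Gja1. For Ocln, Cldn3 and F11r, which were higher in SG than in early SC without overlap, the differences from early SC were 4.41, 4.88 and 4.22 log2 units. Jam3 differed by -0.35 (edgeR adjusted p = 0.02817), which turned to 0.064 (0.7204) with the deep Sertoli cluster in place of all Sertoli cells. Against RS the 7 were again higher, from 2.25 log2 units for Tjp1 to 4.67 for Cldn11 and Ocln. Cldn5 was called lower at -1.82 (edgeR adjusted p = 0.03713), on 8 Sertoli UMIs. It was at most at 1.759 CPM in Sertoli cells and 2.269 CPM in RS, below its level in free RNA (2.485 to 8.084 CPM). With this call near the floor 8 of 9 were called, where 66.7% of all genes were. The Cldn5 call was lost with DESeq2. Jam3 did not pass against RS (0.13, 0.4072).

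Between endothelial cells and SG 6 of the 9 were called, against 43.1% of all genes. Cldn5 (11.11 log2 units), Gja1 (4.56) and F11r (2.63) were higher in endothelial cells, and Cldn3 (-2.81), Jam3 (-2.68) and Cdh2 (-1.44) were lower. Tjp1 was at 0.99 with an edgeR adjusted p of 3.469e-05, just under the limit of size, and Cldn11 (-1.13, 0.1513) and Ocln (0.10) did not pass.

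Scaling between cell types is uncertain, because the median log2 fold change over all genes was 0.35 for Sertoli minus endothelial cells, -0.22 for Sertoli cells minus SG, -0.08 against early SC, -0.29 against RS and -0.53 for endothelial cells minus SG. It moved to 0.12, 0.00, 0.21, -0.35 and -0.03 with DESeq2 size factors, and to 0.54, -0.02, 0.05, 0.56 and -0.52 on library sizes without TMM. Relative to that median, 44 of the 45 differences (9 genes, 5 pairs of cell types) kept their sign under all 3 scalings, and Tjp1 between Sertoli and endothelial cells did not. The share of called genes that were higher in Sertoli cells moved from 51.4% to 66.7% against early SC with DESeq2. With DESeq2 it also moved from 41.4% to 50.8% against SG and from 53% to 47% against endothelial cells. Without TMM it moved from 43.3% to 60.6% against RS and from 53% to 61.1% against endothelial cells. The share higher in endothelial cells than in SG moved from 38.5% to 52.0% with DESeq2.

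The other junction genes were read from lists of further tight junction, adherens junction, gap junction, desmosome, polarity and endothelial junction genes. The endothelial list also holds Cldn5 and Tjp1 from the genes above, and Jam2 and Esam, which are on the tight junction list too. Of the lists, 5 of the 7 tested endothelial junction genes and 8 of 15 adherens junction and nectin genes were lower in Sertoli cells. In the same lists 0 and 1 were higher, where 16.1% of all genes were lower and 18.2% higher. The endothelial list was drawn up for endothelial cells, and Cldn5 and Pecam1 are among the 5, so that count is no separate result. The control endothelial sums also held myoid markers at 184.5 to 2455 CPM and Leydig markers at 7.10 to 747 CPM (10.6 to 28.6 and 19.5 to 68.6 CPM in Sertoli cells), whose part in these counts was not tested. Cdh5, the VE-cadherin of vessels, was at 586 CPM in endothelial cells and at 0.559 CPM in Sertoli cells (log2 fold change -10.87). It is counted on both the endothelial and the adherens junction list. Esam (-9.90) and Pecam1 (-7.02) are adhesion molecules of the same cells and were also lower in Sertoli cells. Pecam1 helped to name the endothelial cells, so its difference is no separate result. For Icam2 and Gja4 (connexin 37), with 2 and 3 Sertoli UMIs, the pooled ratios of endothelial to Sertoli cells were 1645 (95% exact interval 452 to 13640) and 750 (253 to 3667). Gja6, a connexin gene, held 274 UMIs in Sertoli cells and 0 in endothelial cells, and was at least 8.88-fold higher (against 3 counts over the 4 mice). Of the other tight junction genes tested, 2 of 13 were higher and 3 lower, of the gap junction genes 1 and 3 of 6, of the desmosome genes 0 and 1 of 2 and of the polarity genes 4 and 1 of 10.

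Against SG, Sertoli cells had higher Jam2 (4.74 log2 units; 96.8 against 3.19 CPM), Gja6 (4.50), Nectin2 (4.44; 152 against 5.96 CPM), Lsr, a protein of tricellular junctions (3.89), and Espn (3.82; 748 against 44.8 CPM), which encodes the actin bundling protein espin of the ectoplasmic specialization. SG had higher Panx1, a pannexin (-4.03), Marveld2, the tricellular junction protein tricellulin (-3.36; 1.71 against 13.9 CPM), and Cxadr (-2.31; 6.16 against 26.5 CPM). Cdh5 was at -1.89 and was not called. Over the lists, 4 tight junction genes were higher and 4 lower of 13, 5 and 2 of 15 adherens junction genes, 2 and 3 of 6 gap junction genes, 0 and 1 of 2 desmosome genes, 1 and 3 of 10 polarity genes and 2 and 1 of 7 endothelial junction genes, where 18.9% of all genes were higher and 26.8% lower. Among listed genes with the largest differences from early SC were Lsr (5.08), Espn (4.98) and Gja6 (4.53), and from RS Lsr (4.88), Zyx (4.82) and Espn (4.73), all higher in Sertoli cells.

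The genes whose control levels ran most like a junction gene over the 11 cell types were Aqp8 for Cldn11 (Pearson r = 0.997), Esyt3 for Cldn3 (0.962), Syt15 for Cldn5 (0.990), Zfpm1 for Ocln (0.925), Bcar1 for Tjp1 (0.948), Enpp2 for Gja1 (0.943), Abcf1 for Cdh2 (0.928), Rin3 for F11r (0.980) and Mak16 for Jam3 (0.948). Second in order were Dmrta1, Mtcl1, Sema3g, Dcbld1, Slc35f2, Gm14226, Cnst, Apobec3 and Csrnp2, with r from 0.924 for Dcbld1 to 0.989 for Sema3g. Each r is over the mean log2(CPM + 1) of 11 cell types and 14023 genes were compared, so it is a description, and the cell types share mice and free RNA.

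Within Sertoli cells the junction genes were not even. The Sertoli cells fell into 3 clusters, and the plot of cluster shares gives their part in each mouse. A deep cluster (1097 cells in all 9 mice, median 35320 UMIs per cell) was led by genes such as Shbg and Sox9, a shallow cluster (1610 cells, 2118 UMIs) by Tsx and Rhox5, and the third cluster (403 cells, 4834 UMIs) by Fshr and Ctnna2. Over the 4 controls Tjp1 was at 485 ± 73.9 CPM in the deep cluster, 57.0 ± 22.9 in the shallow one and 435 ± 124 in the third (SD, n = 4), and Cdh2 at 270.2 ± 37.0, 64.5 ± 12.4 and 272 ± 60.3. Cldn11 was ordered otherwise, at 447 ± 40.9, 249.8 ± 63.3 and 120.3 ± 45.1 CPM, and so was Cldn3, at 55.6 ± 10.2, 43.7 ± 16.4 and 11.2 ± 10.2. The third cluster was near the deep one for Tjp1 and Cdh2 and below the shallow one for Cldn11 and Cldn3. Tjp1 and Cdh2 are the longest of the junction genes (231617 and 220370 bases), while Cldn11 and Cldn3 span 14405 and 1259 bases. The part of gene length in these levels was not tested. Sertoli markers summed to 8471 to 11890 CPM in the deep, 5852 to 8669 in the shallow and 1763 to 2677 in the third cluster of the controls, and diplotene SC markers to 396 to 992, 2866 to 5566 and 2273 to 5524 CPM, and their part in these levels was not tested. These are levels in clusters made from the same cells and carry no test. Free RNA was estimated at 6.57% to 11.5% of the UMIs of the deep cluster in the controls, at 39.8% up to the set limit of 50% in the shallow cluster and at 26.5% up to that limit in the third. In TDP-43 cKO it was estimated at 9.67% to 39.2% in the deep cluster.

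**Figure D2:**
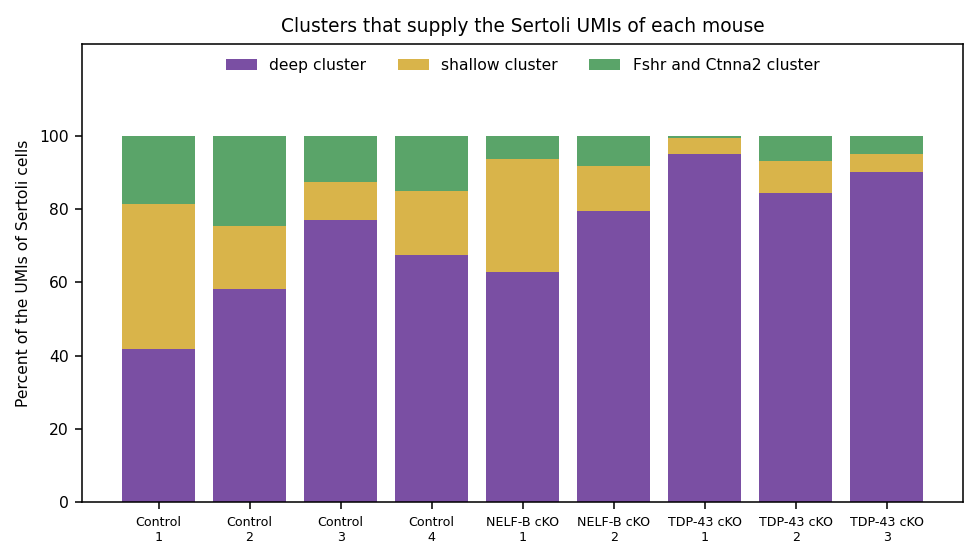
Share of the Sertoli cell UMIs of each mouse that came from the deep, the shallow and the third Sertoli cluster, in percent; each stacked bar is 1 mouse. The deep cluster gave 41.9% to 77.1% in the 4 controls, 62.9% and 79.4% in NELF-B cKO (2 mice) and 84.5% to 95.1% in TDP-43 cKO (3 mice).

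In Sertoli cells of TDP-43 cKO mice 1 junction gene, Cldn3, was called higher than in the controls, and the levels of Cldn11 and Gja1 lay next to the threshold. Cldn11 was at 278, 319, 379 and 410.3 CPM in the controls and at 682, 492 and 512 CPM in TDP-43 cKO, without overlap. Cldn3 was at 33.4, 37.8, 46.5 and 58.7 CPM in the controls and at 73.2, 67.9 and 75.2 CPM in TDP-43 cKO, also without overlap. Gja1 was at 104, 137, 135 and 143 CPM and at 231, 157 and 182 CPM. For each of these genes the lowest TDP-43 cKO mouse was above the highest control, as the plot of Sertoli levels by genotype shows.

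**Figure D3:**
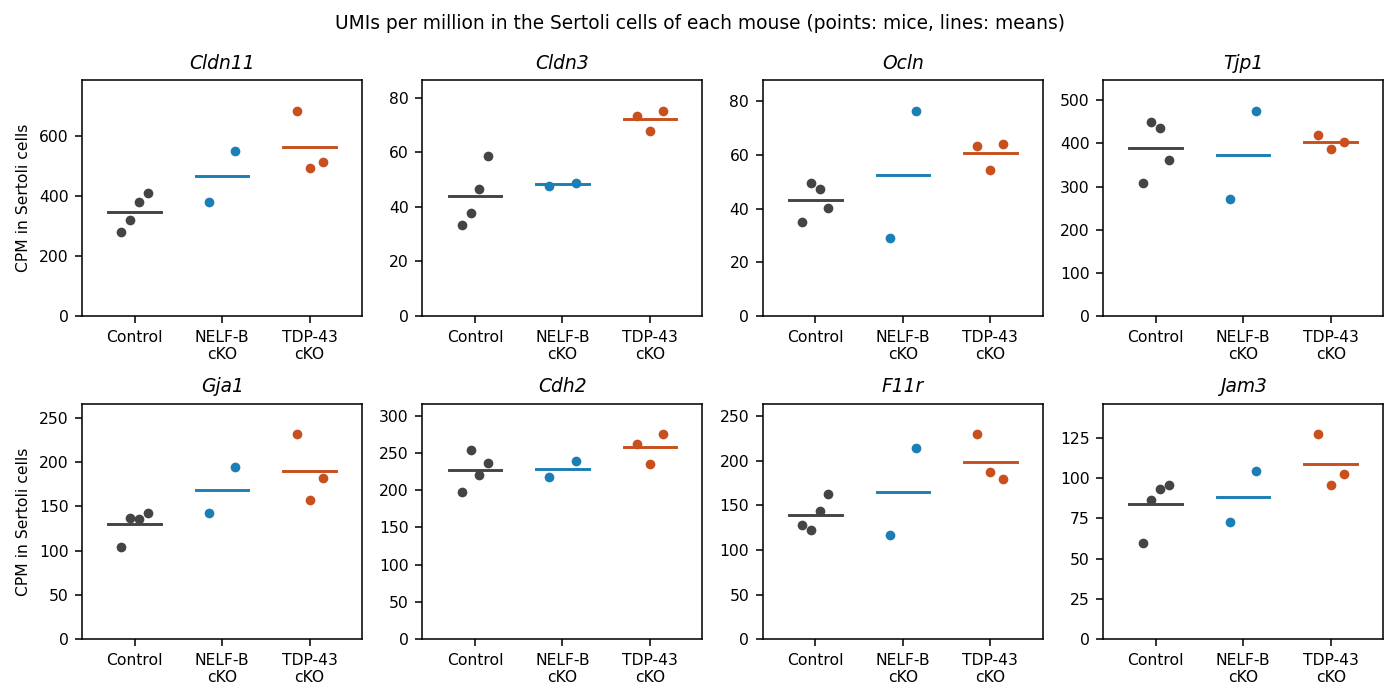
Level of 8 junction genes in Sertoli cells, in CPM, for each of the 4 control, 2 NELF-B cKO and 3 TDP-43 cKO mice; points are mice. All 3 TDP-43 cKO mice are above all controls for Cldn11, Cldn3, Ocln, Gja1 and F11r, and within the control range for Tjp1.

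The fit over all 9 mice tested 15317 genes and 8 of the 9 junction genes, since Cldn5 was too low in Sertoli cells. A genotype difference was called at an edgeR adjusted p under 0.05. Cldn3 was higher in TDP-43 cKO by 0.71 ± 0.18 log2 units (edgeR adjusted p = 0.04799), so that 1 of 8 was called where 8.2% of all genes were, 3.41% of them higher and 4.79% lower. Cldn11 was at 0.71 ± 0.19 (0.05328), Gja1 at 0.56 ± 0.18 (0.06993), F11r at 0.53 ± 0.21 (0.1141), Ocln at 0.50 ± 0.28 (0.2547), Jam3 at 0.38 ± 0.20 (0.2156), Cdh2 at 0.19 ± 0.11 (0.2717) and Tjp1 at 0.07 ± 0.20 (0.8533). All 8 differences were above 0, with a median of 0.51 where the median of all genes was 0.01. By ranges alone, 6 of the 8 had every TDP-43 cKO mouse above every control, with 16.5% of all genes doing so and 22.4% lower in every mouse. The Cldn3 call was lost when any control or TDP-43 cKO mouse was left out (0.61 to 0.88, edgeR adjusted p = 0.07408 to 0.1342), while DESeq2 called Cldn3, Cldn11 and Gja1, 3 of 8 where it called 22.4% of all genes. For Jam3 the lowest TDP-43 cKO mouse and the highest control were both at 95.85 CPM to 4 digits.

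These Sertoli sums also differed in their make-up. Median UMIs per Sertoli cell were 2083 to 3082 in the controls and 6416 to 22649 in TDP-43 cKO, and the deep cluster, in which every one of the 8 genes but Cdh2 had its highest control mean, held 41.9% to 77.1% of the UMIs in the controls and 84.5% to 95.1% in TDP-43 cKO. The 6 markers of diplotene SC summed to 1342 to 3263 CPM in the Sertoli cells of the controls and to 39.2 to 436 CPM in TDP-43 cKO, with none of them at 0, and the 8 RS markers to 88.3 to 391 and 17.3 to 30.7 CPM, with at most 1 at 0. The 8 Sertoli markers summed to 6637 to 9802 CPM in the controls and to 9981 to 12400 CPM in TDP-43 cKO. The 4 myoid markers summed to 10.6 to 28.6 CPM in the controls, with 1 at 0 in each, and to 45.7 to 64.8 CPM in TDP-43 cKO, and the 8 endothelial markers to 14.3 to 15.8 and 20.7 to 23.5 CPM. Their part in the result was not tested, but the deep cluster was fitted alone, an alternative chosen after the data were seen.

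The deep cluster had the free RNA shares given above, 6.57% to 11.5% in the controls and 9.67% to 39.2% in TDP-43 cKO, and the myoid markers in it summed to 10.5 to 27.4 and 44.5 to 64.8 CPM. Markers of Leydig cells (20.7 to 56.4 and 61.9 to 161.7 CPM), macrophages (5.55 to 8.41 and 8.997 to 23.0 CPM) and endothelial cells (12.6 to 18.8 and 20.4 to 23.95 CPM) were also higher in it without overlap. Markers of diplotene SC (396 to 992 and 39.0 to 164.7 CPM), RS (44.1 to 149 and 17.3 to 28.6 CPM) and pachytene SC (377 to 507 and 305 to 325 CPM) were still lower in it without overlap, and the part of all these markers was not tested. In it Cldn3 was at 54.6, 47.8, 49.7 and 70.3 CPM in the controls and at 74.4, 75.9 and 78.6 CPM in TDP-43 cKO, and Cldn11 at 414, 429, 439.9 and 507 CPM and at 697, 543 and 547 CPM. Neither overlapped, and the other 6 genes did (2 of 8, with 9% of all genes higher in every TDP-43 cKO mouse). The differences were 0.48 ± 0.14 log2 units for Cldn3 (edgeR adjusted p = 0.07557) and 0.44 ± 0.14 for Cldn11 (0.08505), smaller than over all Sertoli cells, and 0 of 8 junction genes were called where 2.8% of 13651 genes were. Gja1 was at 0.22, F11r at 0.28, Jam3 at 0.26, Ocln at 0.16, Cdh2 at 0.02 and Tjp1 at -0.16. The plot of log2 fold changes sets both fits side by side.

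**Figure D4:**
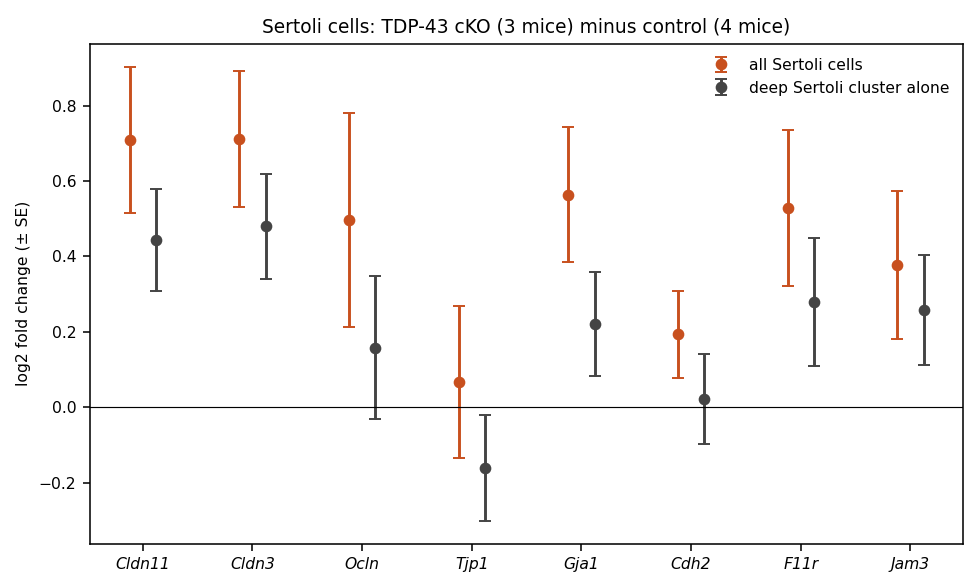
Log2 fold change of 8 junction genes in Sertoli cells, TDP-43 cKO minus control, over all Sertoli cells and over the deep cluster alone; bars are 1 SE. Cldn3 and Cldn11 are at 0.71 over all Sertoli cells and at 0.48 and 0.44 in the deep cluster, and Tjp1 lies near 0 in both.

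NELF-B cKO gave no call in Sertoli cells, not even for Nelfb itself (-1.50 ± 0.28 log2 units, edgeR adjusted p = 0.2981). Cldn11 was at 379 and 549 CPM in the 2 mice, Gja1 at 142 and 195 CPM and Cldn3 at 47.6 and 48.8 CPM, and each of the 8 genes overlapped the controls (0 of 8, with 10.2% of all genes higher and 9.55% lower in both mice). In the deep cluster alone Cldn11 was at 518 and 625 CPM, above the 414 to 507 CPM of the controls (1 of 8, with 8.5% of all genes higher in both mice), and did not pass (0.37 ± 0.15, edgeR adjusted p = 0.3879), where 0% of genes were called. Over all Sertoli cells the differences ran from -0.04 for Tjp1 to 0.44 ± 0.22 for Cldn11 (edgeR adjusted p = 0.4505), and 0 of 15317 genes were called. At an unadjusted p under 0.05 edgeR found 11.8% of all genes and 0 of the 8, and DESeq2 called 73 genes (0.477%) and 0 of the 8. The 2 mice stood apart from each other, with Ocln at 29.0 and 76.4 CPM and F11r at 117 and 214 CPM. TDP-43 cKO minus NELF-B cKO, the test of the difference between the genotypes, gave 0 of 8 and 0 of all genes. At an unadjusted p under 0.05 edgeR found 618 genes (4.03%) and 1 of the 8, Cldn3, and DESeq2 called 9 genes (0.0588%). The largest difference of the 8 was that of Cldn3 at 0.58 ± 0.22 (edgeR adjusted p = 0.9528). Both comparisons with the controls use the same 4 control mice.

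Further junction genes were called in the Sertoli cells of TDP-43 cKO mice. Of the other tight junction genes 5 of 13 were higher and 0 lower, of the adherens junction genes 4 and 0 of 13, and of the gap junction (5), desmosome (2) and polarity (10) genes none was called, where 3.41% of all genes were higher and 4.79% lower. Of the 3 endothelial junction genes tested 1 was higher, which is also on the tight junction list. The largest were Actn1, an actin crosslinker of adhesion sites (3.09 ± 0.49 log2 units), Cxadr, an adhesion protein that SG carried at a higher level than Sertoli cells (1.74), Cldn7 (1.16), Jup, the plakoglobin of desmosomes and adherens junctions (1.10), Zyx (0.93) and Lsr (0.83). The myoid markers, at 10.6 to 28.6 CPM in the controls and 45.7 to 64.8 CPM in TDP-43 cKO, moved with these genes, and their part was not tested. In the deep cluster alone 3 of 10 tight junction and 1 of 13 adherens junction genes were higher, where 1.66% of all genes were higher and 1.14% lower. NELF-B cKO gave 0 calls in each of these lists.

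In SG and early SC combined, Cldn3 was again the only junction gene called. It was at 3.92, 3.45, 4.07 and 3.41 CPM in the controls, at 3.15 and 7.21 CPM in NELF-B cKO and at 7.05, 6.96 and 7.57 CPM in TDP-43 cKO, where every mouse was above every control. The difference was 0.99 ± 0.27 log2 units (edgeR adjusted p = 0.04047), and 1 of 9 was called where 16.2% of 19891 genes were, 4.97% higher and 11.2% lower. F11r, at 15.7 to 20.5 CPM in the controls and 22.1 to 30.6 CPM in TDP-43 cKO, did not overlap either and did not pass (0.49, 0.3311), so that 2 of 9 had every mouse higher, with 15.2% of all genes doing so. Jam3, whose own highest mean was in SG, was at 106, 119.6, 142 and 93.9 CPM in the controls and at 90.8, 140.4 and 125.4 CPM in TDP-43 cKO, within the spread of the mice. Tjp1, Cdh2, Ocln, Gja1, Cldn11 and Cldn5 overlapped between TDP-43 cKO and control as well.

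The stages within these germ cells also differed. SG markers (6 genes) summed to 746 to 1089 CPM in the controls and to 1295 to 1473 CPM in TDP-43 cKO, with none at 0, while the Sertoli markers were at 111 to 219 and 196 to 244 CPM and the diplotene SC markers at 622 to 1482 and 114 to 306 CPM. Free RNA was estimated at 19.4% to 22.9% of the UMIs of SG and early SC in the controls and at 3.30% to 15.3% in TDP-43 cKO. The level of Cldn3 within the free RNA went the other way. It was at 6.27 to 9.13 CPM in the controls, 3.89 and 32.4 CPM in NELF-B cKO and 16.55 to 18.29 CPM in TDP-43 cKO. F11r in free RNA was at 14.0 to 26.1, 8.61 and 79.2, and 54.6 to 76.4 CPM in the same order. The 5 macrophage markers summed to 1.09 to 4.67 CPM in the controls and to 7.37 to 10.6 CPM in TDP-43 cKO. Cldn3 was higher in SG than in early SC, and their part in the result was not tested. In SG alone Cldn3 was at 5.65 to 6.80 CPM in the controls and at 9.41, 9.98 and 10.1 CPM in TDP-43 cKO, without overlap, with a difference of 0.71 ± 0.23 (edgeR adjusted p = 0.1411), and 0.00547% of all genes were called. In early SC alone, on 8 to 16 UMIs per TDP-43 cKO mouse, it was 0.74 ± 0.53 (0.3319), where 22.5% of all genes were called. The call was also lost when any control or TDP-43 cKO mouse was left out (0.93 to 1.02, edgeR adjusted p = 0.07413 to 0.1196). Germ cells with a Tardbp UMI had been removed from the TDP-43 cKO mice only, and with the same removal in the controls the difference was 0.51 (0.4207). With no removal in any mouse it was 0.98 (0.04329) and was called.

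In NELF-B cKO no junction gene was called in SG and early SC (0 of 9, with 3 genes or 0.0151% called by edgeR, 20.1% at an unadjusted p under 0.05 with 0 of the 9, and 1841 genes or 9.26% by DESeq2), nor between the 2 cKO genotypes (0 of 9, with 0.0654% of genes called, 19.1% at an unadjusted p under 0.05 with 0 of the 9, and 1032 genes or 5.19% by DESeq2). The 2 NELF-B cKO mice were again apart, with F11r at 10.4 and 33.5 CPM. Without NELF-B cKO replicate 2, Cldn3 (1.26, edgeR adjusted p = 0.02563) and F11r (1.35, 0.01932) were called higher in TDP-43 cKO than in the one NELF-B cKO mouse left, which is then assumed to vary like the other groups. Of the listed junction genes in TDP-43 cKO against control, Prkcz, a kinase of the polarity complex, was higher (0.65), and Nectin3 (-0.47), Scrib (-0.40), Ctnnd1 (-0.40) and Pkp4 (-0.33) were lower. This was 0 higher and 2 lower of 16 adherens junction genes, 1 and 1 of 11 polarity genes, 0 and 1 of 4 desmosome genes and no call among 15 tight junction, 8 gap junction and 5 endothelial junction genes, where 4.97% of all genes were higher and 11.2% lower.

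In endothelial cells, with 10 to 31 cells per mouse, no junction gene was called between genotypes. Cldn5 was at 2258, 2959, 2278 and 1657 CPM in the controls, 2263 and 1997 CPM in NELF-B cKO and 1761, 2528 and 2144 CPM in TDP-43 cKO, which overlapped throughout. Its differences were -0.18 ± 0.26 for NELF-B cKO and -0.12 ± 0.22 for TDP-43 cKO. Of the 9 genes 6 were tested among 6183, and 0 of 6 were called in each of the 3 comparisons, where edgeR called 0%, 0.0162% and 0.0485% of all genes. At an unadjusted p under 0.05 edgeR found 4.35%, 5.68% and 6% of all genes and 0, 1 and 1 of the 6, Jam3 each time. DESeq2 called 0, 55 and 9 genes (0%, 0.89% and 0.146%). Jam3 had the largest log2 fold change of the 6 in TDP-43 cKO, at 26.4, 11.7, 24.0 and 21.3 CPM in the controls and 48.6, 52.0 and 52.7 CPM, on 3 to 12 and 17 to 29 UMIs. It did not overlap and did not pass over all genes (1.30 ± 0.38, edgeR adjusted p = 0.2385). The 3 interstitial markers summed to 126 to 235 CPM in the endothelial cells of the controls and to 658 to 1100 CPM in TDP-43 cKO, with none at 0, and their part in the Jam3 difference was not tested. None of the 7 endothelial junction genes tested, Cdh5 and Pecam1 among them, was called.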

How the data were processed

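The values deposited by the authors are UMI counts, whole and not normalized, for each gene in each barcode of a 3′ library aligned to mm10. The headers of the files point to Cell Ranger 4, and the submitters' processing notes name versions 6.1.1 and 7.0.0. The filter on barcodes asked for more than 1000 genes and a mitochondrial share under 10% (45132 passed), and that on genes for presence in over 15 of these. Clusters (scanpy 1.11.5, leidenalg 0.10.2) used 3000 variable genes without 75 junction genes, Nelfb or Tardbp, 40 principal components, 20 neighbours and a resolution of 0.8. Of 25 clusters, 20 were named from 14 marker lists, each with at least 3 markers at least 2-fold up. Limits of 2000 median UMIs, of 80% of cells from 1 mouse and on genes of another lineage among the 10 leading genes were set after the clusters were seen. Of the 28075 cells with a type, 24731 were left after germ cells holding any UMI of their targeted gene were dropped from the cKO mice, as in the paper (232 in NELF-B cKO and 3112 in TDP-43 cKO), with the controls not treated alike. Scrublet marked 94 barcodes, too few to have worked, so doublets were not removed.

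UMIs were added up by mouse and by cell type where at least 5 cells were present and tested with edgeR 4.0.16 (filterByExpr, TMM, quasi-likelihood test, Benjamini-Hochberg over all genes tested, two-sided) in R 4.3.3, in 1 fit over the 9 mice for genotypes. With 1 library per mouse, p-values between genotypes measure the spread between mice. Those between cell types measure the spread left within the 4 control mice once the mouse block is taken out, shared over all 11 cell types. Free RNA was read from barcodes of 1 to 100 UMIs. Exact intervals are at 95%. The SE of an edgeR value is the size of the log2 fold change divided by the square root of the test's F value. It is not fitted by edgeR and need not match the p-value. On simulated counts the test found 48% of 2-fold and 100% of 4-fold changes in 14392 genes for TDP-43 cKO in Sertoli cells. For NELF-B cKO it found 39% and 95%. The simulation gave all genes the same spread between mice, changed only well-counted genes and held no difference in make-up between groups, unlike the real Sertoli sums. Besides all 9 junction genes, the text names from the junction lists the called genes with the largest change, at most 6 a comparison, Cdh5, Marveld2, Cxadr and Nectin2 between cell types (1 further gene of this rule is not reported here), and 2 genes most alike each junction gene. Alternatives were DESeq2 1.42.0, no TMM, no filter on low counts, a stricter threshold, free RNA subtracted, a resolution of 1.2, Scrublet doublets removed, other rules for germ cell removal, the replicate number as a block and each mouse left out. The members and lists were chosen with earlier results of these data known. No paired comparison rests on the replicate numbers, because the labels pair no mice and same-numbered TDP-43 cKO and control mice did not deviate together (the 2 pairs of NELF-B cKO and control mice did, at 0.36 and 0.368, in SG and early SC).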

Additional observations from a re-analysis of the deposited data

Results flagged for a closer look

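Ocln in early SC of the controls stood out in 1 mouse. Control replicate 4 was at 4.17 CPM and the other 3 controls were at 0.957 to 1.22 CPM, so that its gap to the nearest mouse was 0.919 of the whole range, above Dixon's 95% critical value for 4 samples. Of 41 groups of 4 mice examined for the junction genes, 1 was picked out in this way, where chance picks out about 1 in 20.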

How the results depend on the processing

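Of 1756 values of the junction genes under alternatives, 37 lost a call, 17 gained one, 6 reversed and 1696 were counted as unchanged. The 1696 include sign changes of 43 main values that lay within 1 SE of 0 and were given no direction. The 6 were F11r in Sertoli cells for TDP-43 cKO minus NELF-B cKO without NELF-B cKO replicate 1 (-0.12 to 0.79 with each mouse left out in turn) and for NELF-B cKO minus control without NELF-B cKO replicate 2 (-0.25 to 0.62), Cdh2 in Sertoli cells for TDP-43 cKO minus NELF-B cKO in the deep cluster (-0.0013), Cldn3 in SG and early SC for NELF-B cKO minus control without NELF-B cKO replicate 2 (-0.28 to 0.92), Cldn11 for endothelial cells minus SG with free RNA subtracted (1.96) and Jam3 for Sertoli cells minus early SC with the deep cluster (0.064). The cause was not tested.

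The number of junction genes called stayed within 1.5 times in 11 of 14 comparisons. In Sertoli cells of TDP-43 cKO against control it was 1, and became 3 with DESeq2, 2 without a filter on low counts or without Scrublet doublets, and 0 without TMM, with the stricter threshold, at a resolution of 1.2, with controls 1 and 2 left out together and in the deep cluster alone. Leaving out each mouse in turn gave 0 to 0. In SG and early SC of TDP-43 cKO against control it was 1, and became 0 with the stricter threshold, with controls 1 and 2 left out together, with the removal in the controls too, in SG alone and in early SC alone, and 0 to 0 with each mouse left out in turn. Between TDP-43 cKO and NELF-B cKO it was 0 to 2 with each mouse left out, 2 without NELF-B cKO replicate 2. Same-numbered mice correlated at -0.637 to 0.368 in their deviations. The 2 NELF-B cKO mice deviate from their mean by equal and opposite amounts, so these correlations are not independent. They do not settle whether same-numbered mice share more than a number. With the replicate number as a block, 0 junction genes were called in both comparisons of TDP-43 cKO with control.

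Between cell types, the Tjp1 difference of endothelial cells minus SG passed the limit of size (1.01 to 1.26) with DESeq2, without TMM, without control replicate 1 or 4, without the block and with the deep cluster. Gja1 was called between Sertoli and endothelial cells without control replicate 2 (1.06), and Ocln was lost without control replicate 4 (1.26, edgeR adjusted p = 0.09555). The number of all genes called in Sertoli cells of TDP-43 cKO moved from 1256 to 3438 with DESeq2, 382 in the deep cluster and 0 with the block. In SG and early SC it moved from 3 to 1841 in NELF-B cKO and from 13 to 1032 between the cKO genotypes with DESeq2, and from 3224 to 1 in TDP-43 cKO with the block. In endothelial cells of TDP-43 cKO it moved from 1 to 55 with DESeq2. Removal in the controls was not run for the comparison of the 2 cKO genotypes. Endothelial values are limited by 10 to 31 cells per mouse.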
